A study of Homo sapiens with 12 samples.

Results

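Fibrinogen is the plasma protein that thrombin cuts to form the fibrin of a clot. It is a symmetric molecule, each side built of an Aα, a Bβ and a γ chain, which are encoded by FGA, FGB and FGG and assembled in the endoplasmic reticulum of hepatocytes, its main source. The 3 genes lie side by side, depend on liver-enriched transcription factors such as the C/EBP family, and are raised by interleukin 6 through STAT3 in the acute phase response. FGL1, fibrinogen-like 1, is a liver-secreted protein with a fibrinogen-like domain that does not form clots and that binds the immune checkpoint receptor LAG3.

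The 4 genes FGA, FGB, FGG and FGL1 were picked by name out of 58735 genes in the deposited count and FPKM tables, and all 4 were found once. They were chosen from measured levels in these same libraries, FGB in HLF above all, so the levels by line and the values of FGB in HLF are given as a description with no test. The study compared the human hepatocellular carcinoma lines Huh7, which keeps hepatocyte features, and HLF, a mesenchymal-like line, both labelled wild-type. Each line was grown flat (2D, harvested on day 2 at about 90% confluence) or in Matrigel, a basement membrane gel, harvested between day 6 and day 8. In Inject-Embed, 4000 Huh7 or 2000 HLF cells per well were injected into a set gel, and in Mix-Embed, 20000 Huh7 or 10000 HLF cells per well were mixed into it. Poly-A RNA of 12 libraries was sequenced, 2 for each of the 6 combinations of line and culture. Culture format, days in culture and seeding number change together and cannot be told apart. The replicates are called biological, but nothing says whether they came from separate cultures. The p-values therefore measure only the spread between these libraries, which is partly borrowed from other genes and may be technical.

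Library totals ran from 12325877 to 16041906 counts. Huh7 expressed all 10 hepatocyte markers checked, with 37100 to 48600 CPM (counts scaled to a common library size) in sum. In HLF the same 10 genes summed to 1.51 to 13.9 CPM, with APOA2, APOB, FABP1 and TTR at 0 in both 2D libraries, so HLF lacked the defining markers of a hepatocyte. The 10 mesenchymal markers summed to 3400 to 4010 CPM in HLF and to 149 to 228 CPM in Huh7. ZEB1 and SNAI2 went the other way, with 26.3 and 0.77 CPM in Huh7 2D and 16.7 and 0 CPM in HLF 2D. Mitochondrial ribosomal RNA was higher in every 3D library (0.468 to 0.597% of counts) than in every 2D library (0.293 to 0.315%), and its part in the results below was not tested.

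FGB (ENSG00000171564) lies at chr4:154562956-154571086 on the plus strand of GRCh38. FGA (ENSG00000171560) at chr4:154583126-154590766 and FGG (ENSG00000171557) at chr4:154604134-154612967 are on the minus strand. No other gene model of the table overlaps these 3 genes.  The 250 bases before each fibrinogen chain's start in RefSeq (GRCh38.p14) are shown because FGA, FGB and FGG differed from each other both in level in HLF and in their response to culture in Huh7. Capitals mark letters that match CTGGGAA (the interleukin 6 response element to which STAT3 binds) or TTGCNNAA (C/EBP), searched on both strands. No match overlaps another.
FGB: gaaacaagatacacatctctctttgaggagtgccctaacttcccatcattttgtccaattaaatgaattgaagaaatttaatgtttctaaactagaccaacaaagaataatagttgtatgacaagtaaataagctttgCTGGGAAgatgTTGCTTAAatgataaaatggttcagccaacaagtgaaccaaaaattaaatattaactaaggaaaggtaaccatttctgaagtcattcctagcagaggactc
FGA: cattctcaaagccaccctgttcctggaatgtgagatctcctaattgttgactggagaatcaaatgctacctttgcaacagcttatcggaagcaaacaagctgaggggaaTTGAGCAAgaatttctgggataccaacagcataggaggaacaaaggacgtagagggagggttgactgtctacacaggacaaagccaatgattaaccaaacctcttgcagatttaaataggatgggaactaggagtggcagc
FGG: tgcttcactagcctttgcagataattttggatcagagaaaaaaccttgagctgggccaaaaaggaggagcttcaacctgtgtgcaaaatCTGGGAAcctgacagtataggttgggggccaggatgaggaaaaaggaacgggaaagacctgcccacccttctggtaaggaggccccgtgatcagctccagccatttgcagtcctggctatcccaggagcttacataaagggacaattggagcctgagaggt
The FGB stretch is chr4:154562730-154562979 (plus strand, before the more upstream of 2 RefSeq starts). The FGA stretch is chr4:154590743-154590992 and the FGG stretch chr4:154612657-154612906, both read on the minus strand. FGB held both motifs, CTGGGAA 112 and TTGCTTAA 101 bases before the start. FGA held TTGAGCAA 141 bases before the start and no CTGGGAA. FGG held only CTGGGAA, 161 bases before the start. Of 35116 promoters in the table, 9.15% held CTGGGAA and 9.05% TTGCNNAA on either strand. These matches describe letters in a short window and are not evidence of binding.

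Huh7 carried all 3 fibrinogen chains at high levels, and most of them were lower in 3D culture by modest amounts. Of all counts, the chains together took 0.388 to 0.397% in flat Huh7 cultures and 0.284 to 0.325% in Matrigel. In these bulk samples fewer expressing cells and less RNA per cell cannot be told apart. FGA, the Aα chain that thrombin cuts to release fibrinopeptide A, had 1600 CPM in both 2D libraries, 1060 and 1100 CPM in Inject-Embed and 1110 and 1120 CPM in Mix-Embed. Both 2D libraries stood above all 4 3D libraries, and the 3D formats lay close to each other. FGB, the Bβ chain, had 1170 and 1160 CPM in 2D, 909 and 932 CPM in Inject-Embed and 924 and 877 CPM in Mix-Embed. The 2D libraries were again the highest, and the 3D formats overlapped. FGG, the γ chain, which carries the platelet integrin binding site at its end, had 1470 and 1420 CPM in 2D, 1380 and 1370 CPM in Inject-Embed and 1110 and 1070 CPM in Mix-Embed. For this chain Inject-Embed stayed near 2D and Mix-Embed stood apart from both. FGL1 (ENSG00000104760, at chr8:17864380-17910365, minus strand) is overlapped by a pair of noncoding models on the opposite strand, AC087273.2 and AC087273.1, neither of which reached more than 10 counts in a library. FGL1 had 28.7 and 26.4 CPM in 2D, 8.93 and 13.5 CPM in Inject-Embed and 19.1 and 20.3 CPM in Mix-Embed. The 3 groups did not overlap, and Inject-Embed was the lowest.

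**Figure D1:**
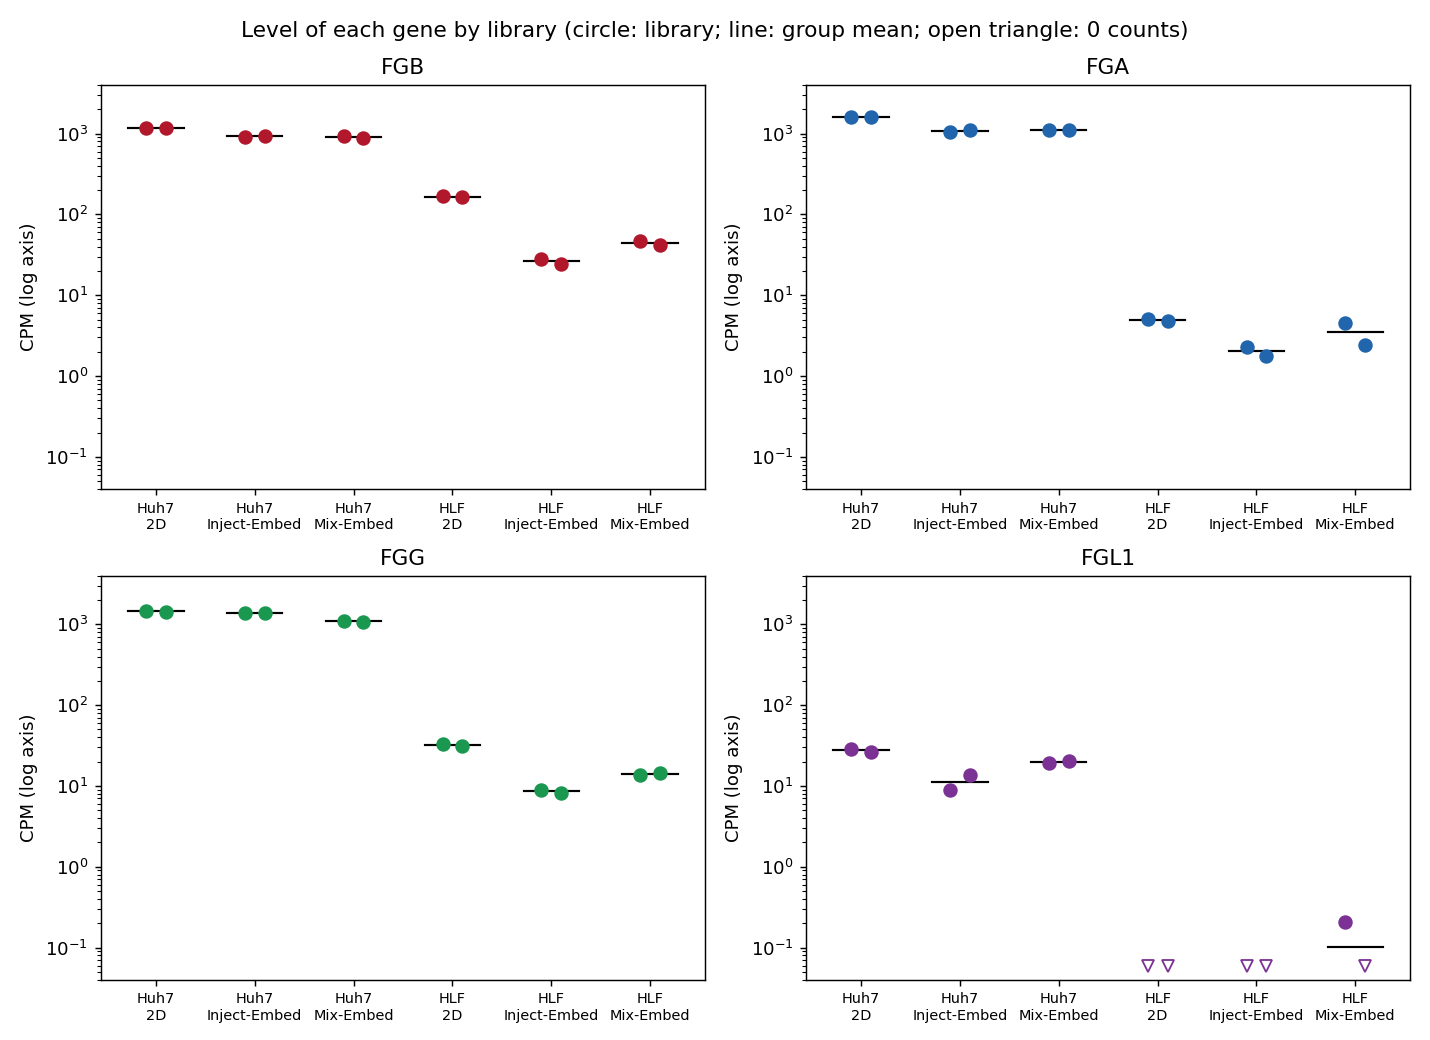
CPM of FGB, FGA, FGG and FGL1 (log axis) in each of the 12 libraries by line and culture, with circles for libraries, lines for group means and open triangles for libraries with 0 counts. The Huh7 libraries stand between 877 and 1600 CPM for the 3 chains, while in HLF the chains lie far apart and FGB is the highest.

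In Huh7 Inject-Embed, 3 of the 4 genes fell against 2D, beside 16.7% of 19342 tested genes that fell and 29.9% called in either direction (edgeR's quasi-likelihood test, Benjamini-Hochberg adjusted p under 0.05). FGA had a log2 fold change of -0.57 ± 0.05 (SE, n = 2 against 2, adjusted p = 1.86e-13), which left 67.5% of its 2D level. The value was -0.34 ± 0.04 for FGB (adjusted p = 3.75e-08) and -1.3 ± 0.17 for FGL1 (adjusted p = 3.38e-08). FGG did not pass the test, with a log2 fold change of -0.07 ± 0.04 (adjusted p = 0.189, 95% interval -0.15 to 0.01). In Mix-Embed all 4 genes fell, where 10.6% of all tested genes fell and 21.7% were called. The log2 fold changes were -0.52 ± 0.05 for FGA (adjusted p = 4.89e-12), -0.37 ± 0.04 for FGB (adjusted p = 9.89e-09) and -0.41 ± 0.04 for FGG (adjusted p = 8.05e-11). That of FGL1 was -0.48 ± 0.15 (adjusted p = 0.0189) and depended on single libraries. Its adjusted p was 0.133 without Huh7 2D replicate 1, 0.148 without Mix-Embed replicate 1 and 0.0661 without Mix-Embed replicate 2. Each of the 4 3D libraries lay below both 2D libraries for all 4 genes, which held for 16.9% of all tested genes.

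The 3D formats of Huh7 were then set against each other, where 22.9% of tested genes were called. FGG was higher in Inject-Embed than in Mix-Embed by 0.34 ± 0.04 on the log2 scale (adjusted p = 9.46e-09, 95% interval 0.26 to 0.42). FGL1 was lower in Inject-Embed, with -0.82 ± 0.17 (adjusted p = 0.000314). That value was -0.54 with an adjusted p of 0.0537 without Inject-Embed replicate 1. FGA and FGB did not pass the test, with -0.05 ± 0.05 (95% interval -0.14 to 0.05) and 0.03 ± 0.04 (95% interval -0.06 to 0.12). From high to low the order of group means was 2D, Inject-Embed, Mix-Embed for FGG, with the first pair not told apart by the test, and 2D, Mix-Embed, Inject-Embed for FGL1. The 3D formats could not be ordered for FGA and FGB.

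**Figure D2:**
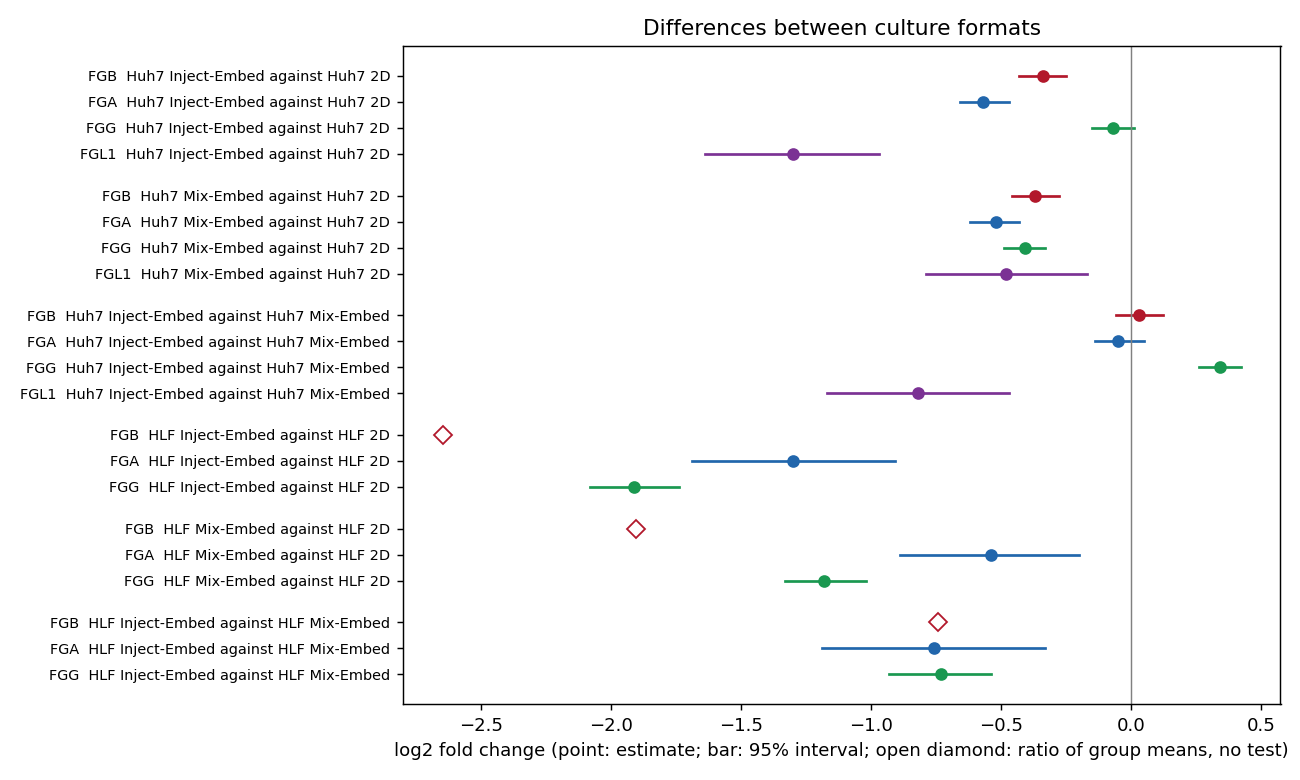
Log2 fold change of each gene between culture formats within a line, with points for estimates, bars for 95% intervals and open diamonds for FGB in HLF, which is a ratio of group means with no test. The Huh7 chains lie between -0.57 and 0.34 and FGB in HLF reaches -2.65.

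HLF carried FGB RNA and much less of the other chains. FGB had 167 and 166 CPM in HLF 2D (2697 and 2627 counts), 28.3 and 24.6 CPM in Inject-Embed (436 and 393 counts) and 46.7 and 41.8 CPM in Mix-Embed (684 and 704 counts). The 3 groups were separate, with 2D far above both 3D formats and Inject-Embed the lowest. The HLF 2D mean was 6.28 times that of Inject-Embed (5.85 to 6.78 between single libraries) and 3.76 times that of Mix-Embed (3.54 to 4). Mix-Embed was 1.67 times Inject-Embed (1.48 to 1.9). Inject-Embed thus held 15.9% and Mix-Embed 26.6% of the 2D level. FGG had 33 and 31.2 CPM in 2D, 8.95 and 8.15 CPM in Inject-Embed and 13.8 and 14.5 CPM in Mix-Embed. It kept the order of FGB at a lower level. FGA had 83 and 76 counts in 2D (5.14 and 4.79 CPM), 35 and 28 counts in Inject-Embed (2.27 and 1.76 CPM) and 66 and 41 counts in Mix-Embed (4.51 and 2.43 CPM). The Mix-Embed libraries differed widely, one close to 2D and the other close to Inject-Embed. FGL1 had 0 counts in 5 of the 6 HLF libraries and 3 counts in Mix-Embed replicate 1. A count of 3 corresponds to 0.178 to 0.255 CPM across the libraries, so FGL1 was not detectable in HLF at this depth and no change was computed.

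FGG fell in HLF in both 3D formats, with log2 fold changes of -1.91 ± 0.08 in Inject-Embed (adjusted p = 2.99e-22) and -1.18 ± 0.08 in Mix-Embed (adjusted p = 6.05e-17). FGA fell in Inject-Embed, with -1.3 ± 0.19 (adjusted p = 1.35e-06). Its value of -0.54 ± 0.17 in Mix-Embed (adjusted p = 0.0127) rested on single libraries. It was -0.13 (adjusted p = 0.751) without Mix-Embed replicate 2 and -0.49 (adjusted p = 0.096) without 2D replicate 1. Both tested genes therefore fell in both comparisons, beside 8.86% of tested genes lower and 17.9% called in Inject-Embed and 14.6% lower and 29% called in Mix-Embed. Between the 3D formats, FGG was lower in Inject-Embed, with -0.73 ± 0.1 (adjusted p = 4.09e-07), where 4.71% of tested genes were lower and 8.27% called. FGA had -0.76 ± 0.21 (adjusted p = 0.0173), which became -0.29 (adjusted p = 0.707) without Mix-Embed replicate 1 and -0.59 (adjusted p = 0.263) without Inject-Embed replicate 2. Each 3D library lay below both 2D libraries for FGA and FGG, which held for 19.4% of all tested genes.

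The response of FGG and FGA to 3D culture was compared between the lines, a test added after the values were seen. FGG fell more in HLF than in Huh7 for Inject-Embed against 2D, with a difference (HLF minus Huh7, log2) of -1.83 ± 0.09 (adjusted p = 6.91e-20), where 24.8% of tested genes differed between the lines. For Mix-Embed against 2D the difference was -0.76 ± 0.09 (adjusted p = 2.36e-09), where 20.4% differed. For Inject-Embed against Mix-Embed the FGG responses had opposite signs, with a difference of -1.07 ± 0.1 (adjusted p = 1.62e-10), where 10.6% differed. FGA fell more in HLF than in Huh7 in Inject-Embed, with -0.73 ± 0.2 (adjusted p = 0.00505), and the adjusted p was 0.0936 without HLF Inject-Embed replicate 2. For Mix-Embed its difference was -0.02 ± 0.17 (95% interval -0.37 to 0.32), which did not pass the test. For Inject-Embed against Mix-Embed it was -0.71 ± 0.22 (adjusted p = 0.026). That became -0.28 (adjusted p = 0.675) without HLF Mix-Embed replicate 1 and -0.58 (adjusted p = 0.2) without HLF Inject-Embed replicate 2.

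Among the 3 chains, the gap between the lines was widest for FGA and narrowest for FGB. In 2D, Huh7 had 7.02 times the FGB of HLF (95% counting interval 6.82 to 7.22), 45.1 times the FGG (42.4 to 48) and 322 times the FGA (276 to 379). These intervals cover counting error only. In Inject-Embed the ratios were 34.8 (32.5 to 37.3) for FGB, 161 (143 to 182) for FGG and 537 (419 to 699) for FGA. In Mix-Embed they were 20.5 (19.4 to 21.6), 76.7 (69.8 to 84.4) and 328 (271 to 400) in the same order. That order of the 3 chains held in all 3 formats, and the FGB gap was smallest in 2D. For FGL1, the ratio was 294 in 2D and 116 in Inject-Embed, taking 3 counts over the HLF group as the floor. The lower ends of the 95% counting intervals were 238 and 93.7. In Mix-Embed the ratio was 206 (70.2 to 1000), on 3 HLF counts.

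Per length, FGA, FGB and FGG lay closer together in Huh7 than in HLF. Deposited FPKM, counts scaled by gene length and library total, were used for this comparison of levels between genes. Huh7 2D had 405 and 399 FPKM of FGB, 378 and 376 FPKM of FGA and 383 and 366 FPKM of FGG, so FGA and FGG did not differ beyond their spread. Inject-Embed had 365 and 364 FPKM of FGG, 321 and 328 of FGB and 256 and 264 of FGA, which put FGG first. Mix-Embed had 315 and 301 FPKM of FGB, 284 and 275 of FGG and 259 and 262 of FGA. FGL1 was between 2.58 and 8.12 FPKM in Huh7. The ratio of FGG to FGA was 1.01 and 0.974 in Huh7 2D, 1.42 and 1.38 in Inject-Embed and 1.1 and 1.05 in Mix-Embed. The 3 groups were separate, and with 2 libraries a group an exact permutation test of 2 groups cannot give a p below 0.333, so none was run.

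HLF 2D had 64 and 63.6 FPKM of FGB, 9.5 and 9.01 FPKM of FGG and 1.35 and 1.26 FPKM of FGA. FGB thus made up 85.8% of the summed FPKM of the 3 chains, FGG 12.4% and FGA 1.75%, against 34.8%, 32.4% and 32.6% in Huh7 2D. In HLF 3D the FGB share was lower, at 76.8 to 77.6% in the 4 libraries, and the FGA share was 3.06 to 5.13%. The ratio of FGB to FGA was 47.5 and 50.5 in HLF 2D, 18.2 and 20.5 in Inject-Embed and 15.1 and 25.1 in Mix-Embed, against 1.06 to 1.25 in the 6 Huh7 libraries. These ratios depend on the length assigned to each gene. The table gives FGB a length of 2708 bases and FGA 3956, and the MANE Select transcripts of GENCODE v44 are 3641 and 2209 bases long. With the transcript lengths, an alternative added after the data were seen, FGB over FGA became 0.443 in Huh7 2D and 20.4 in HLF 2D. FGG over FGA moved little, from 0.992 to 0.964 in Huh7 2D. The FGB gene as counted ends at 154571086 and its MANE Select transcript at 154572807. Reads from the part beyond were not counted, so dividing by the transcript length understates FGB. The level of FGB relative to the other chains in Huh7 is therefore not settled by these tables, and FGB stayed the highest chain in HLF with either length.

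**Figure D3:**
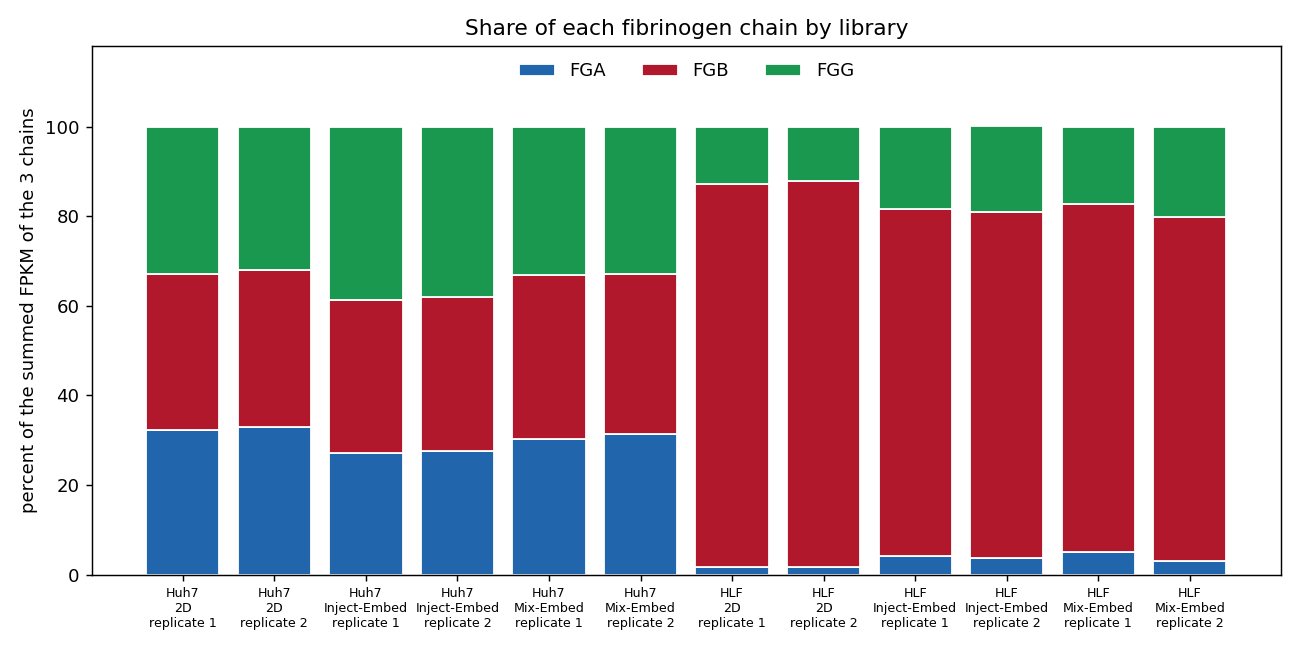
Percent of the summed FPKM of FGA, FGB and FGG that each chain takes, as a stacked bar for each of the 12 libraries. Each chain takes 27.2 to 38.8% in the Huh7 libraries, and FGB takes 76.8 to 86.1% in the HLF libraries.

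FGB was also set against the RNAs of other secreted liver proteins in HLF, 28 from a fixed list and the 4 genes described here. FGB ranked first of the 32 in HLF 2D at 63.8 FPKM, and FGG ranked next at 9.25 FPKM. APOC1 at 1.38 FPKM, C3 at 1.33 and FGA at 1.3 followed. FGB kept the first place of the 32 in both 3D formats. AMBP, at 3.03 FPKM in Inject-Embed and 4.81 in Mix-Embed, took the place below it. Clotting genes outside this list were not ranked, and some lay above APOC1 or AMBP. PROS1 had 4.73, 7.24 and 9.39 FPKM in HLF 2D, Inject-Embed and Mix-Embed, and PROC 3.06, 4.17 and 3.44, all below FGB. HLF 2D had 0.00249% of the AFP level of Huh7 2D, AFP being the most abundant of these RNAs in Huh7, and 0.0295% of its ALB level. The 28 other secreted liver RNAs summed to 18.1 CPM in both HLF 2D libraries, 33.9 to 35.4 CPM in Inject-Embed and 57.2 to 58.3 CPM in Mix-Embed. The sum was higher in 3D, where FGB, FGG and FGA were lower, and 3 genes carried most of it: C3 (10.7, 15.8 and 30.2 CPM in 2D, Inject-Embed and Mix-Embed), AMBP (1.81, 5.78 and 9.07) and AFP (0.56, 5.16 and 8.38). Of 27 tested, 6 rose in HLF Inject-Embed and 5 in Mix-Embed, with medians of 0 and 0.18, and the rest did not pass the test. Over all tested genes, 17.9% and 29% were called in either direction, of which 8.86% and 14.6% of tested genes were lower. Nothing particular to these genes can be read from either count. Markers of blood, endothelial and platelet cells summed to 3.53 to 9.09 CPM in HLF over 12 genes, with PTPRC, HBB, PF4, PPBP and GP9 at 0 in all 3 groups. CD14 had 2.94 CPM in 2D, 4.16 in Inject-Embed and 6.92 in Mix-Embed and PECAM1 0.467, 0.822 and 1.1 CPM. Of 3 tested markers, 1 rose in each HLF 3D format, beside the same shares of all tested genes called. The part of these markers in the results was not tested.

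**Figure D4:**
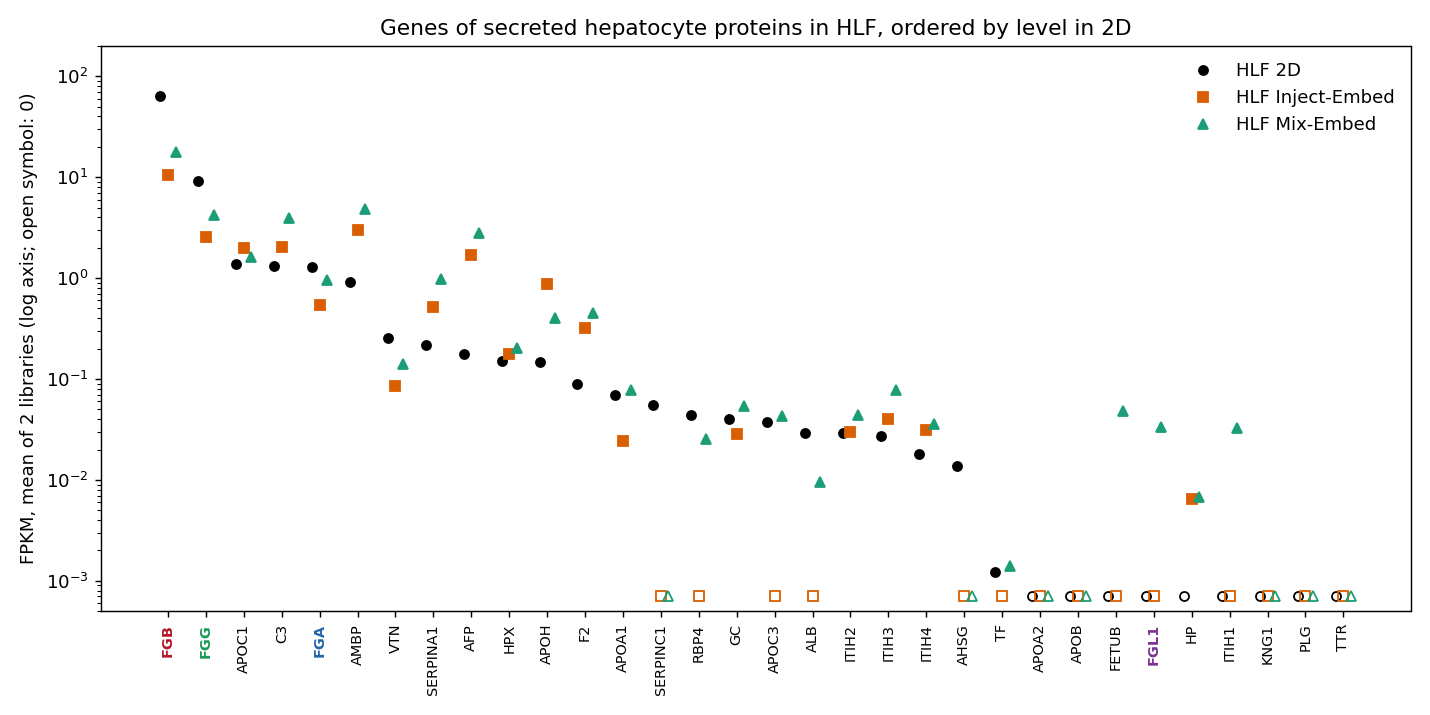
FPKM (log axis, mean of 2 libraries) of 32 genes of secreted hepatocyte proteins in HLF, ordered by the level in 2D, with a symbol for each culture format and open symbols at the bottom for 0. FGB leads in all 3 formats, at 63.8 FPKM in 2D.

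Several genes of the interleukin 6 axis, which drives fibrinogen in the acute phase, fell in Huh7 3D culture, and several rose in HLF Mix-Embed. In Huh7, FGA and FGB fell in both 3D formats, while FGG fell in Mix-Embed alone (-0.07 in Inject-Embed, not called). A link between the axis and the chains was not tested. SOCS3, the feedback inhibitor that STAT3 induces, had 14 ± 2.5 CPM in Huh7 2D, 1.81 ± 0.32 in Inject-Embed and 4.77 ± 0.25 in Mix-Embed (SD, n = 2), with log2 fold changes of -2.95 ± 0.19 and -1.55 ± 0.15. STAT3 had -0.86 ± 0.06 and -0.36 ± 0.06 in the same comparisons, and IL6ST, the shared signalling receptor gp130, had -0.9 ± 0.07 and -0.7 ± 0.06. IL6R, the ligand-binding receptor, rose by 0.72 ± 0.09 and 0.76 ± 0.09. All 8 of these calls had adjusted p-values of 1.08e-05 or less. Of 17 tested genes of interleukin 6 family signalling, 2 rose and 7 fell in Huh7 Inject-Embed, and 3 rose and 5 fell in Mix-Embed, beside 29.9% and 21.7% of all tested genes called. In HLF Mix-Embed, SOCS3 rose by 0.44 ± 0.08, STAT3 by 0.54 ± 0.06 and IL6ST by 0.58 ± 0.06, while FGG fell and FGB was lower. In HLF Inject-Embed, SOCS3 (0.1 ± 0.08, adjusted p = 0.448) and STAT3 (0.12 ± 0.06, adjusted p = 0.153) did not pass the test. Of the 17 genes, 2 rose and 3 fell there, and 6 rose and 2 fell in HLF Mix-Embed, beside 17.9% and 29% of all tested genes called.

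In Huh7 Inject-Embed 15 of 18 tested members of a list of other acute phase genes fell and the other 3 did not pass the test, with a median log2 fold change of -1.11, against -0.01 over all tested genes. In Mix-Embed 9 fell and 2 rose, with a median of -0.43. Over all tested genes, 16.7% fell in Inject-Embed and 10.6% in Mix-Embed. HP, the haemoglobin scavenger haptoglobin, had -1.27 ± 0.06 in Inject-Embed and -0.57 ± 0.06 in Mix-Embed, beside -0.57 and -0.52 for FGA. SERPINA3, which encodes antichymotrypsin, had -2.3 ± 0.19 and -0.9 ± 0.16. CP, the copper carrier ceruloplasmin, had -1.83 ± 0.07 in Inject-Embed and 0.21 ± 0.06 in Mix-Embed, a rise whose adjusted p of 0.00724 went to 0.101 without Huh7 2D replicate 2 and was also above 0.05 without either Mix-Embed replicate. Of the 18, C3 alone reached 10 CPM in HLF, where it rose by 0.57 ± 0.09 in Inject-Embed and by 1.5 ± 0.08 in Mix-Embed.

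Among the regulators of the chain genes, HNF4A, a nuclear receptor that maintains the hepatocyte state, had 366 CPM in Huh7 2D and 0.0625 CPM in HLF 2D. CEBPB fell in HLF, with -0.4 ± 0.1 in Inject-Embed (adjusted p = 0.00149) and -0.37 ± 0.09 in Mix-Embed (adjusted p = 0.00228). Without HLF 2D replicate 2 its adjusted p was 0.0731 and 0.0943, without Inject-Embed replicate 1 it was 0.0523, and without Mix-Embed replicate 1 it was 0.175. CEBPD, at 5.41 CPM in HLF 2D, had 0.64 in Inject-Embed (adjusted p = 0.00512) and 0.69 in Mix-Embed (adjusted p = 0.00128). The first became 0.43 (adjusted p = 0.194) without Inject-Embed replicate 2 and 0.58 (adjusted p = 0.0644) without 2D replicate 1. CEBPA, at 1.25 CPM in HLF 2D, had 1.06 in Mix-Embed (adjusted p = 0.00276), and 0.78 (adjusted p = 0.0847) without 2D replicate 1. In Huh7, HNF4A rose by 0.44 ± 0.05 and 0.59 ± 0.05 and CEBPA by 0.32 ± 0.06 and 0.59 ± 0.06, while FGA and FGB fell. CEBPD fell in Inject-Embed, with -1.13 ± 0.08. In Mix-Embed it had -0.28 ± 0.08 (adjusted p = 0.00694), and -0.14 (adjusted p = 0.334) without Huh7 2D replicate 2 and -0.17 (adjusted p = 0.295) without Mix-Embed replicate 1. Of 18 tested regulators, 5 rose and 6 fell in Huh7 Inject-Embed, and 6 rose and 2 fell in Huh7 Mix-Embed. In HLF, 1 rose and 1 fell in Inject-Embed, and 6 rose and 2 fell in Mix-Embed. The shares of all tested genes called were 29.9% and 21.7% in Huh7 and 17.9% and 29% in HLF, each in the order Inject-Embed and Mix-Embed, so nothing particular to the regulators can be read from the HLF Inject-Embed count.

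**Figure D5:**
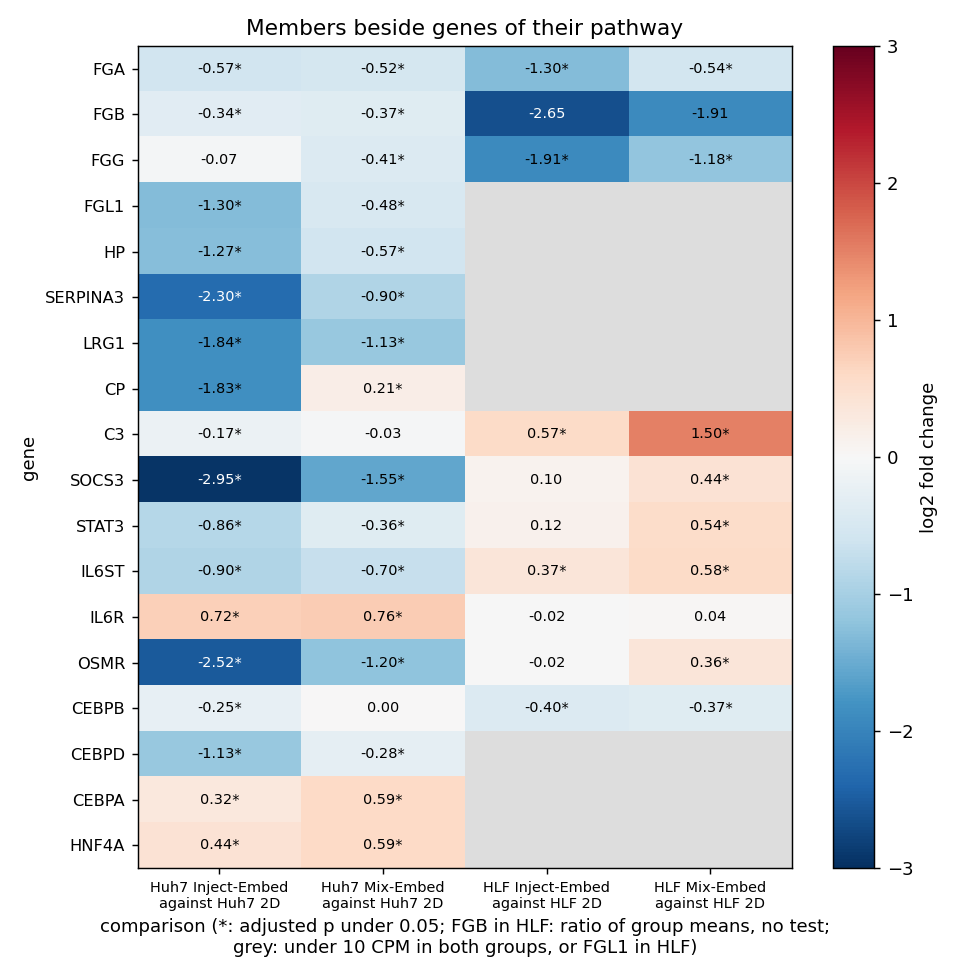
Log2 fold change against 2D of the members and of 14 acute phase, interleukin 6 and regulator genes, by line and 3D format, with an asterisk where the adjusted p is under 0.05 and grey where neither group reached 10 CPM or the gene is FGL1 in HLF. SOCS3 stands at -2.95 in Huh7 Inject-Embed and at 0.44 in HLF Mix-Embed.

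Within 500 kb of the 3 chain genes the table held 16 other genes, 4 of them protein-coding (PLRG1, LRAT, DCHS2 and RBM46). PLRG1, a spliceosome component whose gene lies 12.5 kb from FGB, had 63 CPM in Huh7 2D, 81.5 in Inject-Embed and 65.7 in Mix-Embed, and 107, 88.2 and 81.6 CPM in HLF. It rose in Huh7 Inject-Embed, where FGA and FGB fell, with 0.37 (adjusted p = 5.84e-05). In HLF it had -0.28 in Inject-Embed (adjusted p = 0.00147) and -0.39 in Mix-Embed (adjusted p = 7.26e-06), beside -1.91 and -1.18 for FGG. The first of these had an adjusted p of 0.0628 without HLF 2D replicate 1 and 0.0665 without Inject-Embed replicate 1. LRAT, 14 kb from FGG, stayed between 0.167 and 0.701 CPM in every group. DCHS2, 67.4 kb from FGB, had 22.3, 23.5 and 33.6 CPM in Huh7 2D, Inject-Embed and Mix-Embed, and no counts in HLF but for 3 in Mix-Embed. It rose in Huh7 Mix-Embed, with 0.59 (adjusted p = 0.00076), where FGA, FGB and FGG fell. RBM46 had a single count over the 12 libraries.

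The genes with the nearest pattern were found by the root mean square difference in log2 CPM, each gene centred on its mean over the 6 libraries of a line. In Huh7, among 9397 protein-coding genes, the nearest were LAMP2 for FGA (0.034), ASPM for FGB (0.019), PLXNC1 for FGG (0.014) and ADM2 for FGL1 (0.1). No member was among the 5 nearest of another in Huh7, where FGA and FGB differed by 0.097 and FGA and FGG by 0.21. In HLF, among 9582 genes, the nearest to FGB were ANKRD1 (0.16), MDGA1 (0.28) and FGG (0.36), and MAMDC2 (0.12) was the nearest to FGG. The 6 libraries are 3 groups, so many genes share any such pattern.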

How the data were processed

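The data are 12 RNA libraries, 2 per group, per the labels. The submitters' processing notes name FastQC, Trimmomatic, STAR 2.7.9a, featureCounts and GRCh38. For the strand setting and the gene models, not given in the sources used here, no assumption was made. Raw counts per gene were deposited by the authors, and FPKM in a second table of the same genes. Recomputing FPKM from count, gene length and library total gave every deposited value with 20 or more counts (167453 values) to within a relative 1e-06. A symbol table held 58207 of the 58735 gene IDs.

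CPM were computed from counts and TMM-scaled totals. Differences were tested with edgeR 4.0.16 (R 4.3.3) on all 12 libraries, with a mean per group and quasi-likelihood tests. A filter with a minimum count of 10 left 19342 genes, over which p-values were adjusted by Benjamini-Hochberg at 0.05. All 4 members passed it, FGL1 through Huh7 alone. The spread of each gene was estimated over all groups and moderated towards that of other genes. It had 6 residual degrees of freedom and a median of 36.3 borrowed from other genes, so small p-values rest largely on the latter. The common coefficient of variation between replicates was 4.6%. The scripts were tested on simulated data. No 2 replicate columns were identical. Alternatives were DESeq2 1.42.0, limma 3.58.1 on log2(FPKM + 1) and log2(FPKM + 0.1), other scaling, no filter, the libraries of 1 line, a replicate block and leaving out each library. Where HLF had no counts, the ratio took 3 counts over the group as a floor. Tables were read with python 3.11.15 and pandas 2.3.3, and figures drawn with matplotlib 3.10.9. RefSeq held the promoters of all 3 chain genes by symbol.

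The members and 12 gene lists were chosen with earlier results of these data known, and no list was tested. Besides the members and their neighbours, the genes named are 13 with known roles and, for each list and comparison, up to 3 called genes with the largest change among those with at least 10 CPM, and 1 of the opposite direction. Some of these genes are not reported here. Other genes named (APOC1, AMBP, AFP, LRAT) are given as members of a list or of the window.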

Additional observations from a re-analysis of the deposited data

Results flagged for a closer look

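The response to 3D culture differed between the lines by the test of the difference itself in 5 results, each as HLF minus Huh7 on the log2 scale. The test was added after the values were seen. Of all tested genes, 24.8%, 20.4% and 10.6% differed in the 3 comparisons, in the order given here. For Inject-Embed against 2D the difference was -0.73 for FGA and -1.83 for FGG. For Mix-Embed against 2D it was -0.76 for FGG. For Inject-Embed against Mix-Embed it was -0.71 for FGA and -1.07 for FGG. In the last comparison FGG was higher in Huh7 Inject-Embed than in Mix-Embed, and lower in HLF. The FGA differences rest on 28 to 83 counts per HLF library and depended on single libraries. The difference of -0.73 became -0.59 without HLF Inject-Embed replicate 2. That of -0.71 became -0.28 without HLF Mix-Embed replicate 1. FGB was not tested in HLF, and its values in both lines stand side by side in the report.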

How the results depend on the processing

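The 24 tested results on the members kept their direction and their side of the threshold in 262 of 288 alternatives. The reversals among them were all of the FGA difference between the lines for Mix-Embed against 2D (-0.02, not called). The 3 untested ratios of FGB in HLF moved by less than the replicate spread in 34 of 36. The 149 results on other named genes held in 1628 of 1788, with 0 reversed. Those 149 were taken because the main test called them, so none could gain a call and a reversal was unlikely. The replicate numbers did not pair the libraries (correlations of deviations -0.037 to 0.029), and with a replicate block FGG in HLF Inject-Embed was -1.91 and no member's call changed. With limma on log2(FPKM + 0.1), FGA in Huh7 was no longer called in Inject-Embed or Mix-Embed against 2D (both -0.53), nor FGL1 between the 3D formats (-0.78). FGL1 in Huh7 Mix-Embed against 2D was not called with DESeq2 (-0.5), log2(FPKM + 1) (-0.43) or log2(FPKM + 0.1) (-0.49), and ran from -0.54 to -0.42 with 1 library left out. FGL1 between the 3D formats ran from -1.13 to -0.54. FGB in HLF became -2.5 and -1.79 with log2(FPKM + 1), a scale that understates changes of low genes. FGA in HLF Mix-Embed against 2D was not called on the HLF libraries alone (-0.53) or with limma (-0.26 and -0.47), and ran from -1.01 to -0.13 with 1 library left out. FGA between the HLF 3D formats had -0.77, -0.32 and -0.66 under the same alternatives and ran from -1.17 to -0.29. Between the lines, FGA ran from -0.96 to -0.59 for Inject-Embed against 2D and from -1.16 to -0.28 between the 3D formats. For Mix-Embed against 2D it ran from -0.48 to 0.4, with 0.03 without HLF 2D replicate 1, and was 0.05 with library totals alone. The cause of these changes was not tested. FGA in HLF had 28 to 83 counts per library. Of all genes, the 1600 called between the HLF 3D formats became 1030 with DESeq2, 982 and 670 with limma and 766 to 1046 with 1 library left out. The 3471 called in HLF Inject-Embed against 2D became 2247 to 2294, and the 4203 in Huh7 Mix-Embed against 2D became 2696 to 3764, the lowest without Huh7 Mix-Embed replicate 2. The ratio of FGB to FGA with transcript lengths is given in the report.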

Other observations

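Genes that act on fibrinogen or carry it were counted in the same comparisons, from lists that were not tested as lists. Values below are log2 fold changes against 2D ± SE from edgeR's test. Of all tested genes, 16.7% fell and 29.9% were called in Huh7 Inject-Embed, and 10.6% and 21.7% in Huh7 Mix-Embed. The shares were 8.86% and 17.9% in HLF Inject-Embed and 14.6% and 29% in HLF Mix-Embed. Of 18 tested genes of the clotting cascade and plasmin system, 3 rose and 10 fell in Huh7 Inject-Embed against 2D, and 8 rose and 1 fell in Mix-Embed. F2, the prothrombin gene whose product cuts fibrinogen, had -0.3 ± 0.06 in Inject-Embed and 0.55 ± 0.05 in Mix-Embed, while FGA and FGB fell in both. In HLF 3 of the 18 rose in each 3D format and the other 15 did not pass the test, and PROS1, which encodes protein S, had 0.57 ± 0.08 and 0.93 ± 0.08. Nothing particular to the clotting genes can be read from these HLF counts. Of 9 tested genes for activators and inhibitors made by many cells, 3 rose and 2 fell in Huh7 Inject-Embed and 1 rose and 2 fell in Mix-Embed. In HLF 3 rose and 5 fell in Inject-Embed and 2 rose and 2 fell in Mix-Embed. There SERPINE2, which inhibits thrombin, had 3.88 ± 0.11 and 3.91 ± 0.11.

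Of 9 other tested genes with a fibrinogen-like domain, 1 fell in Huh7 Inject-Embed. In HLF 1 rose in each 3D format, TNC, the matrix glycoprotein tenascin C, at 490 ± 12 CPM in 2D, 1100 ± 23 in Inject-Embed and 977 ± 11 in Mix-Embed. Nothing particular to the list can be read from that count. Of 11 tested receptors of fibrinogen, fibrin and FGL1, 7 fell and the other 4 did not pass the test in Huh7 Inject-Embed, and 2 rose and 4 fell in Mix-Embed. ICAM1, an adhesion receptor that binds fibrinogen, had -2.4 ± 0.15 and -1.16 ± 0.13. In HLF 4 rose in Inject-Embed and 3 in Mix-Embed, and the rest did not pass the test. ITGAV, a subunit of the integrin that binds fibrin, had 0.42 ± 0.05 and 0.45 ± 0.05. Of 16 chaperones and cargo receptors of secretion, 12 fell in Huh7 Inject-Embed and 13 in Mix-Embed, and the rest did not pass the test. LMAN1, a cargo receptor of clotting factors, had -0.41 ± 0.05 in Inject-Embed. In HLF 2 rose and 5 fell in Inject-Embed, and 2 rose and 3 fell in Mix-Embed. Of 27 tested secreted liver proteins, 6 rose and 13 fell in Huh7 Inject-Embed and 13 rose and 5 fell in Mix-Embed. ALB rose in both, with 1.71 ± 0.05 and 0.89 ± 0.05.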
